A study of Homo sapiens with 12 samples.

Results

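RNA stability in MDA-MB-231 cells that over-express a tRNA-Glu was compared with stability in the same cells over-expressing a tRNA-Arg. This line comes from a human triple-negative breast tumour and has a mesenchymal form. The comparison used 8 of the 12 samples of the study, which were chosen by their labels and not by measured values. These were the lines labelled tRNA-Glu and tRNA-Arg, each carrying a stably over-expressed tRNA locus (Glu-TTC or Arg-CCG, written by the anticodon), and each collected after 0 or 9 h of α-amanitin at 10 µg/mL, with 2 arrays for each line and time. The remaining 4 samples were a mock line at the same times. They did not enter the comparison itself, but they added to the shared estimate of the spread. The labels do not say whether a line was a single clone or a pool, and they do not say whether the 2 samples of a group came from separate cultures, so the p-values measure the spread between these samples only. No tRNA was measured by name, so over-expression could not be checked in the arrays.

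α-Amanitin blocks RNA polymerase II, so the messenger RNA that remains hours later reflects mainly how slowly each transcript decays. The tRNAs bring amino acids to the ribosome and are made by RNA polymerase III, which is far less sensitive to the drug. A tRNA-Glu reads glutamate codons and a tRNA-Arg reads arginine codons, and the supply of a tRNA and the decay of messages rich in its codons are linked in several organisms. The question of the comparison is which transcripts outlast the block differently in the line with one tRNA than in the line with the other. Because the arrays were normalised to each other, a rise after 9 h is a rise relative to most other transcripts. It can mean that a transcript was lost less than most others, and new synthesis was not measured. Bulk RNA cannot tell a change in some cells from a smaller change in every cell.

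Each array was a 1-colour Illumina expression BeadChip with 47231 probes, and its mean raw intensity lay between 497 and 606. The probes carry identifiers but no gene names here, so array results are given by probe and the markers of MDA-MB-231 could not be checked. Gene names come from the authors' deposited table, which holds a stability score for each line against control and no error. The first tRNA-Glu array at 0 h stood apart. On the second principal component of the log2 signals (8.82% of the variance) it lay at -30.1, while the other 0 h arrays lay between 0.903 and 10.7. The 2 tRNA-Glu arrays at 0 h also differed from each other more than those of any other group, with an SD over probes of 0.286 on the log2 scale against 0.186 to 0.226. The stability counts, the probes shown array by array and the groups of probes by mock response are therefore given with and without it. Correlations, separated changes and opposite responses are given with all arrays only. The deposited tRNA-Glu scores cannot be recomputed without it, and its part in them was not tested.

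Ranked by the difference of the gene scores, which have no error, seryl-tRNA synthetase and the kinesin KIFC1 stood at the low end for tRNA-Glu. ANKRD1, BLMH and SOX4 stood at the high end. To set the columns side by side, each score was divided by the SD of its column over all 34602 genes, which in the authors' deposited table is 0.135 for tRNA-Glu and 0.0846 for tRNA-Arg, and the tRNA-Arg value was subtracted. Formula, scale and log base of the scores are not stated, and a positive score is read from the column name as greater stability than in control. Both scores share the control samples, so the scaled difference describes the deposited values and carries no test. Of all genes in the authors' deposited table, 3421 (9.89%) had a scaled difference above 1 and 3232 (9.34%) had one below -1.

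The sign of a difference does not tell the sign of either score. Among the 3421 genes above 1 in the authors' deposited table, 1842 had a positive tRNA-Glu score and a negative tRNA-Arg score, 738 had positive scores in both lines and 841 had negative scores in both. Below -1 in the authors' deposited table, 1518 had a negative tRNA-Glu score and a positive tRNA-Arg score, 985 were positive in both and 729 were negative in both. Plain subtraction without scaling turned the sign of 25 genes above 1 and 30 genes below -1 in the authors' deposited table.

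The lowest scaled difference belonged to SARS, which encodes the cytosolic synthetase that loads tRNA-Ser. Its score in the authors' deposited table was -0.829 for tRNA-Glu and 0.196 for tRNA-Arg, a scaled difference of -8.47. KIFC1, a minus-end directed kinesin that gathers spindle poles, followed with -0.641 and 0.308 in the authors' deposited table (scaled difference -8.40). These genes had scores of opposite sign in the lines, negative with tRNA-Glu. CYR61, a secreted matricellular protein induced through YAP, showed the same order in the authors' deposited table, with -0.317 for tRNA-Glu and 0.322 for tRNA-Arg. RETSAT, which reduces retinol, was negative in both lines in the authors' deposited table, at -1.05 and -0.141.

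TAF15 and PABPC4 had low differences without a negative score in either line. TAF15, an RNA-binding protein of the FET family, in the authors' deposited table scored 0.380 with tRNA-Glu and 0.740 with tRNA-Arg. PABPC4, a cytoplasmic poly(A)-binding protein, scored 0.0497 and 0.531 in the authors' deposited table. Lysosomal enzymes were also present: CTSA, the protective protein of the lysosome, had -0.759 and 0.00749, and the acid phosphatase ACP2 had -0.349 and 0.290, in the authors' deposited table. The other 4 of the 12 lowest genes had scaled differences from -5.20 to -5.88 in the authors' deposited table: HNRPA1P4, a pseudogene of the RNA-binding protein HNRNPA1, SH3BP5L, spermidine synthase SRM and the splicing regulator TRA2A.

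At the high end, ANKRD1 and SOX4 had negative scores in both lines, closer to 0 with tRNA-Glu. ANKRD1, an ankyrin repeat protein whose gene is a YAP target, scored -0.492 with tRNA-Glu and -0.857 with tRNA-Arg, a scaled difference of 6.47 in the authors' deposited table. SOX4, a transcription factor of the SOX family, scored -0.0448 and -0.561 (scaled difference 6.30 in the authors' deposited table). ANKRD1 and CYR61, both known YAP targets, therefore stood at opposite ends of the authors' deposited table, while CTGF, another such target chosen after its values were seen, had a scaled difference of only -0.460 in the authors' deposited table.

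BLMH, a cytosolic cysteine protease, changed sign between the lines, with 0.541 and -0.194 in the authors' deposited table (scaled difference 6.31). So did HSPE1, the small subunit of the mitochondrial chaperonin, with 0.206 and -0.306 in the authors' deposited table. RANBP9, a scaffold protein of the CTLH ubiquitin ligase, was high with tRNA-Glu alone, at 0.737 against 0.0351 in the authors' deposited table. RPS26P10, a pseudogene of the ribosomal protein gene RPS26, had the highest tRNA-Glu score of these 24 genes, 1.00 against 0.193 in the authors' deposited table. The remaining high genes were ZNF679, FHL3, BLOC1S1, NMI, the plasma membrane SNARE protein STX4 and the small nucleolar RNA SNORA12, with scaled differences from 4.80 to 5.49 in the authors' deposited table. All 24 kept their sign without scaling, with division by the median absolute deviation and as a residual of one score on the other, although ANKRD1 moved to 2.49 as a residual and TAF15 to -2.56, on the same spread, in the authors' deposited table.

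**Figure D1:**
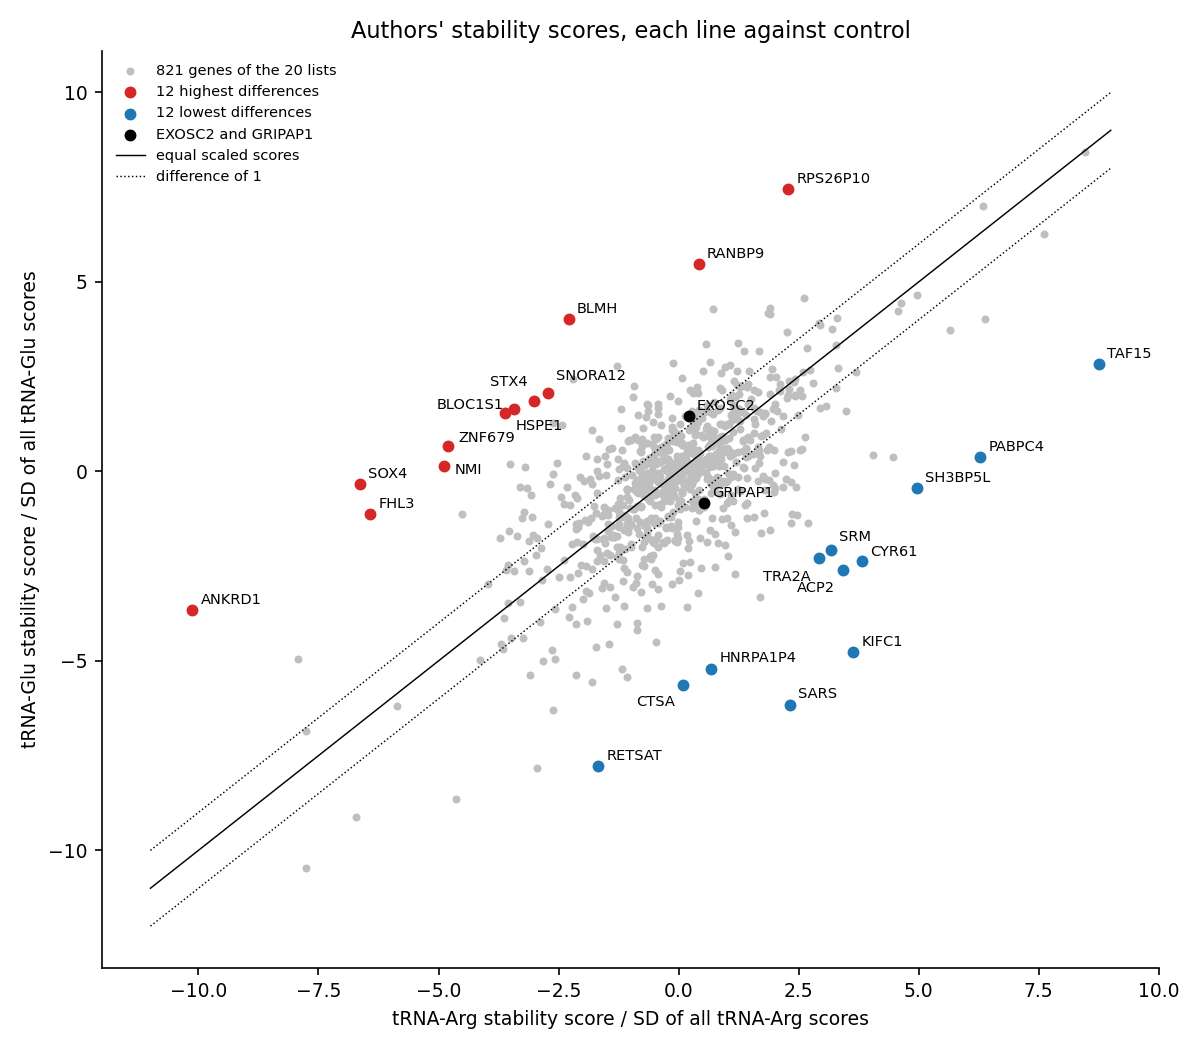
Stability scores of the authors' deposited table, divided by the SD of all genes, for tRNA-Arg (horizontal) and tRNA-Glu (vertical); grey points are the 821 list genes, coloured points the 12 highest, 12 lowest and 2 followed genes. SARS and KIFC1 lie at the lower right with opposite signs, while ANKRD1 lies at the lower left with both scores negative.

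EXOSC2 and GRIPAP1, the transcripts that the study followed, lay just past the mark of 1 in opposite directions. EXOSC2, a subunit of the RNA exosome, scored 0.195 with tRNA-Glu and 0.0177 with tRNA-Arg, and its scaled difference of 1.24 was at percentile 93.3 of all genes in the authors' deposited table. GRIPAP1, a protein of recycling endosomes, scored -0.114 and 0.0447, and its difference of -1.37 lay at percentile 5.13 of the authors' deposited table. Thus EXOSC2 had the higher score in the tRNA-Glu line and GRIPAP1 the lower.

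Transcripts with a known role were grouped in 20 lists, of which 821 genes were found. These genes were further from 0 than genes at large on both sides: 140 (17.1%) were above 1 and 205 (25%) were below -1 in the authors' deposited table, and their median was -0.0909 against 0.0104 for all genes. The median of 13 of the 20 lists was below 0 in the authors' deposited table. Counts in a list are therefore given to be read against 17.1% and 25% as well as against all genes.

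The translation machinery was not uniform. Of 79 cytosolic ribosomal protein genes, 21 were above 1 and 12 below -1 (median 0.277 in the authors' deposited table). RPL31, of the large subunit, reached 3.57 in scaled difference, while RPS3, of the small subunit, had -3.33 in the authors' deposited table. The medians of the subunits were 0.350 for 32 genes of the 40S and 0.232 for 47 genes of the 60S in the authors' deposited table. Initiation and elongation factors lay the other way, with 8 of 48 genes above 1 and 17 below -1 (median -0.538 in the authors' deposited table). Of these the 13 subunits of EIF3, the scaffold of the initiating ribosome, lay at -0.741 in the median, per the authors' deposited table. EIF4H, a helper of the helicase EIF4A, had -3.13, while EIF1B and EIF4G3 had 3.70 and 3.32 in the authors' deposited table.

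Among 38 aminoacyl-tRNA synthetases, 6 were above 1 and 9 below -1 (median -0.155 in the authors' deposited table). After SARS, the lowest were CARS at -3.18, WARS at -2.86 and FARSA at -2.43 in the authors' deposited table; these load cysteine, tryptophan and phenylalanine. The synthetases of the over-expressed tRNAs lay within 1 of 0: EPRS, which loads glutamate and proline, had -0.437, and RARS, which loads arginine, had 0.887 in the authors' deposited table, both chosen by their role after values were known. SARS2, the mitochondrial partner of SARS, chosen after its value was seen, had 2.09 in the authors' deposited table, so that seryl-tRNA synthetases lay on both sides. In the list of amino acid response and transport genes, 1 of 28 (3.57%) was above 1 and 6 (21.4%) were below -1. The shares over all list genes were 17.1% and 25%, and the list median was -0.464 in the authors' deposited table. SLC7A5, a transporter of large neutral amino acids, had -4.06 and the stress transcription factor DDIT3 had -3.47 in the authors' deposited table.

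Genes of RNA decay and splicing lay on both sides. Of 54 exosome and decay genes, 12 (22.2%) were above 1 and 17 (31.5%) below -1 (median -0.201 in the authors' deposited table). The shares over all list genes were 17.1% and 25%. Within the LSM ring, which binds the ends of deadenylated messages, LSM5 had 4.07 and LSM4 -3.69 in the authors' deposited table. The exosome subunits EXOSC6 and, chosen after its value was seen, EXOSC4 were likewise apart, at 3.41 and -3.13, in the authors' deposited table. PATL1, which joins decapping and deadenylation, had -4.08, with scores of 0.0509 and 0.377 in the authors' deposited table. Of 53 spliceosome and hnRNP genes, 8 were above 1 and 20 (37.7%) below -1 in the authors' deposited table. Per the authors' deposited table, the 16 hnRNP genes, whose proteins package nuclear RNA, had 9 below -1 and 1 above 1. The 10 SR protein genes, splicing activators, were spread both ways, with 4 above 1 and 3 below -1 per the authors' deposited table. The medians of these families were -1.28 and 0.455, per the authors' deposited table. HNRNPL had -4.87, from scores of -1.05 and -0.249 in the authors' deposited table.

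Proteasome subunits had the lowest list median on this scale, -0.776 over 37 genes, with 4 above 1 and 16 (43.2%) below -1 in the authors' deposited table. Without scaling, DNA replication (-0.881 on the same spread) and translation factors (-0.588) lay below the proteasome (-0.552) in the authors' deposited table. The non-ATPase subunits of the 19S cap, which receive ubiquitinated proteins, had a median of -1.45, and 9 of these 13 were below -1 in the authors' deposited table. PSMD4, a ubiquitin receptor, in the authors' deposited table scored -0.701 with tRNA-Glu and -0.100 with tRNA-Arg. PSMD8 reached its scaled difference of -3.61 with positive scores in both lines, 0.0575 and 0.342, in the authors' deposited table. The exceptions above 1 were PSMA2, PSMA4, PSMC5 and PSMD11, at 1.32 to 2.32 in the authors' deposited table. Of 24 chaperones, a mainly cytosolic list that also holds the mitochondrial HSPE1, HSPD1 and HSPA9, 2 were above 1 and 5 below -1, and after HSPE1 the largest differences were those of DNAJB1 (-3.75), CCT3 (-2.66) and BAG3 (-2.62) in the authors' deposited table. Folding genes of the endoplasmic reticulum had a median of 0.272 that became -0.00612 as a residual, with 6 of 37 above 1 and 8 below -1; the disulfide isomerase PDIA6 had -4.03 in the authors' deposited table.

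Genes of DNA replication also lay low, with 4 of 39 above 1 and 14 (35.9%) below -1 (median -0.472 in the authors' deposited table). The 6 subunits of the MCM helicase, which unwinds DNA at the fork, had a median of -1.60, and 4 were below -1 while MCM6, named after its value was seen, was at 2.33 in the authors' deposited table. UHRF1, which recruits DNA methylation to new strands, had -3.22, thymidine kinase TK1 had -2.90 and the polymerase subunit POLA1 had -2.77 in the authors' deposited table. Of 36 mitotic genes, 7 (19.4%) were above 1 and 11 (30.6%) below -1 in the authors' deposited table. The shares over all list genes were 17.1% and 25%. The checkpoint kinases TTK and BUB1B had 3.64 and 2.88 and the cytokinesis factor ECT2 had 2.93, while the kinase AURKB had -3.61 in the authors' deposited table. Histone genes, many of whose messages end in a stem-loop and not a poly(A) tail, had 4 of 44 above 1, near the 9.89% of all genes, and 2 below -1 (median 0.374, and HIST1H1C highest at 2.91, in the authors' deposited table).

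Single short-lived messages were found at both ends, though the list as a whole was near or below the shares of all list genes. Of 53 immediate early and short-lived transcripts, 6 (11.3%) were above 1 and 15 (28.3%) below -1 (median -0.391 in the authors' deposited table). The shares over all list genes were 17.1% and 25% in the authors' deposited table. The highest of the list, ANKRD1 and SOX4, and its lowest, CYR61, have been given above. FOSL1, an AP-1 subunit, had scores of -0.445 and 0.143 in the authors' deposited table. The mesenchymal and invasion list was even, with 7 of 45 on each side in the authors' deposited table. In it, the actin capper CAPG had -2.71 and the collagenase MMP1 had 2.37 in the authors' deposited table. CTSD, a lysosomal protease, had 2.97 from nearly equal scores of -0.666 and -0.670, and as a residual its sign turned, in the authors' deposited table. Of 34 luminal and basal epithelial markers, 1 (2.94%) was above 1 and 9 (26.5%, near the share of all list genes) were below -1. Among the latter were the keratins KRT19 (-3.76) and KRT8 (-2.54) in the authors' deposited table.

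Metabolic lists differed among themselves. Of 74 oxidative phosphorylation genes, 16 were above 1 and 15 below -1 in the authors' deposited table. Medians for complex III (7 genes) and complex IV (10 genes) were 0.578 and 0.591 with no gene below -1, and the complex I subunit NDUFS8 had 3.89 against -3.89 for SDHA of complex II in the authors' deposited table. ATP5E had -2.35, but its plain scores were equal within 0.00264 and the sign turned without scaling in the authors' deposited table. Of 20 glycolysis genes, 4 were above 1 and 9 (45.0%) below -1, with the isomerases GPI at -3.71 and TPI1 at 2.72 in the authors' deposited table. Sterol synthesis had 6 of 25 above 1 and 3 below -1, led by FDPS, which makes farnesyl diphosphate, at 4.62 in the authors' deposited table.

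Interferon and antigen presentation genes had 13 of 41 above 1 and 9 below -1, with a median of 0.202 that became -0.0656 without scaling in the authors' deposited table. HLA-E had -4.36 and IFITM2 -3.34, while IFI44 had 3.18 and the transcription factor IRF1 2.98 in the authors' deposited table. The list of RNAs made without RNA polymerase II had 14 genes found. Of these, 4 (28.6%) were above 1 and 2 (14.3%) below -1 (median 0.440 in the authors' deposited table). The Y RNAs RNY1 and RNY4 had 2.44 and 2.17 and the brain cytoplasmic RNA BCYRN1 had 2.31, while the 5S ribosomal RNA RN5S9 had -1.74 in the authors' deposited table. Whether the drug spared these transcripts was not tested.

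**Figure D2:**
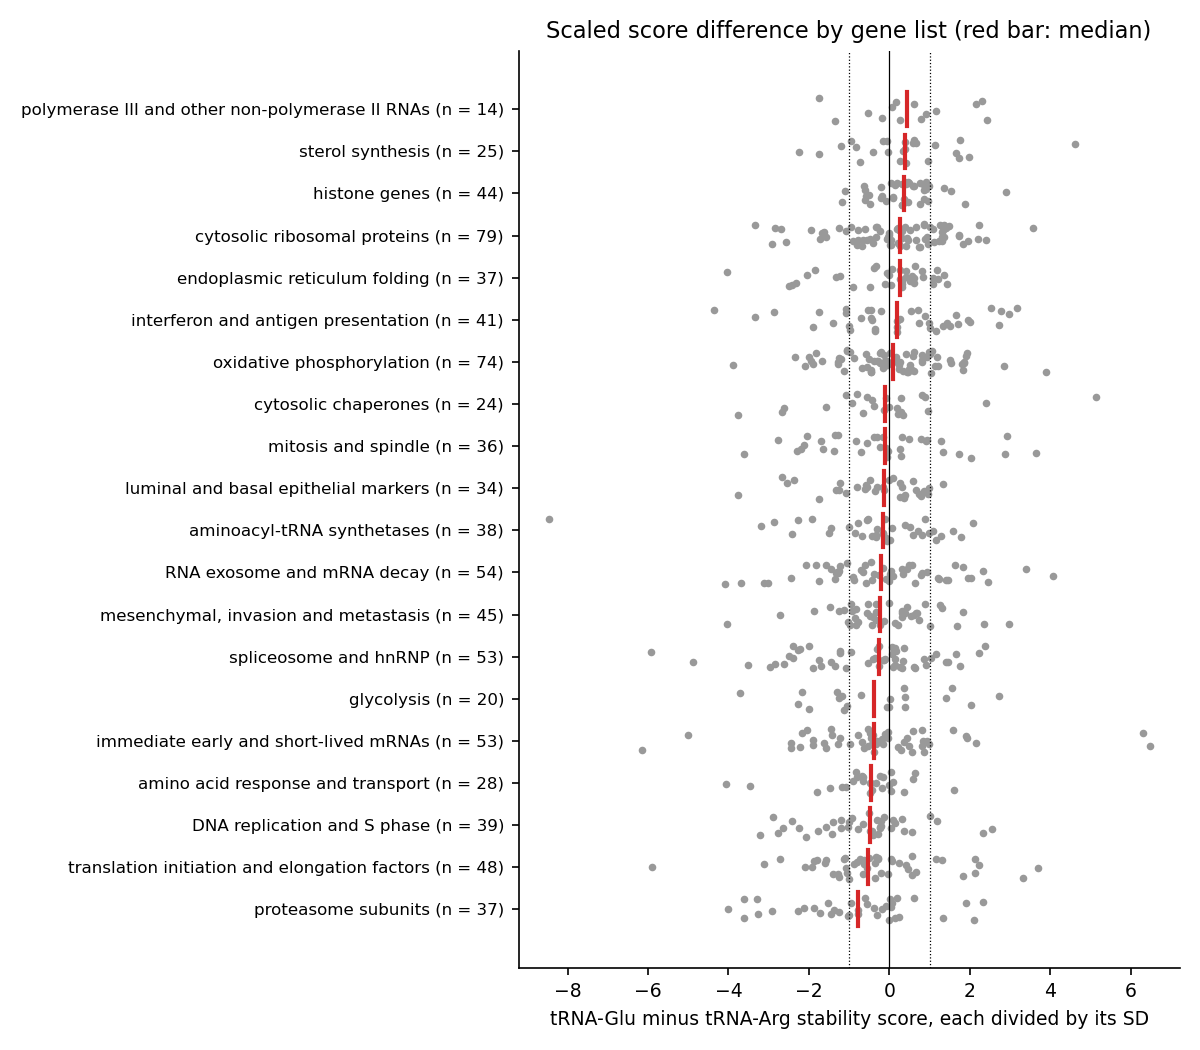
Scaled score difference (tRNA-Glu minus tRNA-Arg, in SD units) of every gene found in the 20 lists, from the authors' deposited table; red bars are list medians and dotted lines mark -1 and 1. On this scale proteasome subunits have the lowest median, -0.776, and polymerase III and other non-polymerase II RNAs the highest, 0.440.

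On the arrays, where replicates allow a test, no probe passed the test for a difference in stability between the lines. The stability difference was the 9 h minus 0 h change with tRNA-Glu minus the same change with tRNA-Arg, on the log2 scale, over 25456 probes with signal in at least 1 group. With limma's moderated test and Benjamini-Hochberg adjustment 0 probes (0%) passed 0.05, and the smallest adjusted p was 0.438. At an unadjusted p under 0.05 there were 2475 probes (9.72%), 1194 higher and 1281 lower with tRNA-Glu. Half-widths of the 95% confidence interval had a median of 0.424, against an SD of 0.276 for the differences themselves, so most differences were smaller than these 8 arrays could resolve. Differences past 1 in size were few, with 15 higher and 24 lower. All 4 changes with tRNA-Glu (each 9 h array minus each 0 h array) lay above all 4 with tRNA-Arg for 3155 probes (12.4%) and below for 3000 (11.8%).

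The response to the drug was large in both lines. With limma, 8364 probes (32.9%) changed between 0 and 9 h with tRNA-Glu, 4272 up and 4092 down. With tRNA-Arg 7107 (27.9%) changed, 3517 up and 3590 down. Which line had more calls depended on the fit: with array weights limma called 6355 probes with tRNA-Glu and 9029 with tRNA-Arg. The order also turned without the tRNA-Glu array that stood apart. Of the 25456 probes tested, 2227 were called as rising in both lines and 2922 as falling in both, while 11 were called in opposite directions. The other called probes were called in a single line only. Over all probes tested, the tRNA-Glu response regressed on the tRNA-Arg response with a slope of 0.914 (r = 0.835 across 25456 probes, which are not independent replicates, and with no array in common). No probe was called between the lines at 0 h by limma (0 of 25456, with 2420, 9.51%, at unadjusted p under 0.05) or at 9 h (0, with 2259, 8.87%). Across probes, the 0 h difference and the 9 h difference correlated at r = -0.0543. Their SDs over probes, 0.193 at 0 h and 0.187 at 9 h, were below the median half-width of their confidence intervals, 0.3 at each time. Most of these differences were thus too small to resolve, so this r cannot show whether differences between the lines at 0 h persisted to 9 h.

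The tRNA-Glu array that stood apart carried weight here. Without it, 0 probes were called by limma and 1606 had an unadjusted p under 0.05. Without its partner, so that it alone stood for tRNA-Glu at 0 h, 637 probes were called, 190 higher and 447 lower, and the same omission brought 1323 calls at 0 h. Leaving out other arrays gave from 0 to 2 calls.

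Since no probe was called, the 8 with the smallest p in each direction and separated changes were examined, as a description. This choice favours large differences, and the SEs and the interval given below are not adjusted for it. In 4 of the higher and 5 of the lower probes every group of both tRNA lines had signal above the array median on at least 1 array. The others were below it on both arrays of at least 1 group, so no fold is given for them. The adjusted p by limma was 0.438 for the first probe and 0.459 for the others named below.

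ILMN_3268697 showed the widest separation. Its log2 signals with tRNA-Glu were 6.46 and 6.71 at 0 h and 8.68 and 8.89 at 9 h. With tRNA-Arg they were 6.83 and 7.56 at 0 h and 7.28 and 7.56 at 9 h. The signal therefore rose in the tRNA-Glu line, from below all other groups to above them, while the tRNA-Arg arrays overlapped between times. In mock cells it went from 7.78 and 7.80 to 7.27 and 6.83, so the direction there was opposite. The stability difference was 1.97 ± 0.30 (SE, 95% interval 1.33 to 2.62), that is, 1.36 between the lines at 9 h minus -0.61 at 0 h. It passed 0.05 in 3 alternative settings and in 2 of 12 omissions of an array (adjusted p from 0.0456 to 0.72 over the settings). Without the array that stood apart it was 1.85 with an adjusted p of 0.716.

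ILMN_3229652 had higher means at 9 h than at 0 h in all lines, most of all with tRNA-Glu. Its tRNA-Glu signals were 8.22 and 8.32 at 0 h and 9.74 and 9.91 at 9 h, against 8.82 and 8.59 and then 8.80 and 9.26 with tRNA-Arg. The tRNA-Glu change was called (1.56, adjusted p = 8.75e-06 by limma) and the tRNA-Arg change of 0.33 was not (adjusted p = 0.142). Their difference was 1.23 ± 0.22 (SE). Signals of ILMN_1657950 with tRNA-Glu were 7.72 and 7.95 and then 9.54 and 9.54, and with tRNA-Arg 8.42 and 8.23 and then 8.81 and 9.10. Both changes were called, 1.71 and 0.63, so the signal rose relative to most probes in both lines. The stability difference was 1.08 ± 0.20 (SE), that is, 0.59 between the lines at 9 h minus -0.49 at 0 h.

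ILMN_3293244 was of another form, a crossing. With tRNA-Glu it went from 5.77 and 5.68 to 6.42 and 6.41, and with tRNA-Arg from 6.24 and 6.30 to 6.02 and 5.20. Its last tRNA-Arg value was below the array median, and the tRNA-Arg arrays at 9 h differed from each other by more than the tRNA-Glu change. The rise of 0.69 and the fall of 0.66 were each called by limma (adjusted p = 0.0133 and 0.0207), with a difference of 1.35 ± 0.27 (SE). Without the first tRNA-Arg array at 9 h the difference was 1.76 and passed by limma (adjusted p = 0.00706), and without the second it was 0.94 and did not (adjusted p = 0.442). Without background correction it was 0.86.

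Among probes lower with tRNA-Glu, ILMN_1695468 was flat outside that line. It stayed at 6.40 and 6.56 and then 6.50 and 6.64 with tRNA-Arg, and at 6.74 and 6.62 and then 6.78 and 6.59 in mock cells. With tRNA-Glu it fell from 6.70 and 6.68 to 5.80 and 5.87. The 9 h tRNA-Glu arrays lay below every other array, and the difference was -0.95 ± 0.17 (SE).

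ILMN_1677466 was lower at 9 h in every line, and the fall was called in both tRNA lines. Its signal went from 8.74 and 8.71 to 7.23 and 7.09 with tRNA-Arg and from 8.92 and 8.72 to 6.31 and 6.53 with tRNA-Glu. The mock change of -1.51 was close to that of -1.56 with tRNA-Arg, while with tRNA-Glu it was -2.40, and the difference was -0.84 ± 0.17 (SE). ILMN_1776963 rose by 0.79 with tRNA-Arg and was 0.73 higher in mock cells, while its mean changed by -0.000459 with tRNA-Glu. Its tRNA-Glu arrays were at 7.82 and 7.56 at 0 h, above all 4 other 0 h arrays, and at 7.74 and 7.64 at 9 h. The tRNA-Arg arrays went from 7.13 and 7.06 to 7.85 and 7.92, and the difference was -0.79 ± 0.17 (SE), most of it from the start (0.60 at 0 h against -0.19 at 9 h).

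ILMN_1686735 and ILMN_1660277 crossed in the reverse sense. The first went from 6.01 and 5.89 to 5.24 and 5.52 with tRNA-Glu and from 5.11 and 5.64 to 6.24 and 5.94 with tRNA-Arg, a difference of -1.29 ± 0.25 (SE), with 6 of these 8 values above the array median. Without background correction it was -0.76, and with an offset of 50 it was -0.77. The second went from 6.90 and 6.71 to 6.19 and 6.44 with tRNA-Glu and from 6.49 and 6.36 to 6.87 and 6.82 with tRNA-Arg, a difference of -0.92 ± 0.18 (SE). In all 9 probes the difference between the lines at 0 h had the opposite sign to that at 9 h; the probes were chosen by the difference between these values. Without the tRNA-Glu array that stood apart, the differences of the 4 higher probes were 1.85, 1.18, 0.96 and 1.40 in the order given. Those of the 5 lower probes were then -0.94, -0.74, -0.66, -1.23 and -0.82, and none of the 9 was called by limma (adjusted p 0.716 or 0.776).

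**Figure D3:**
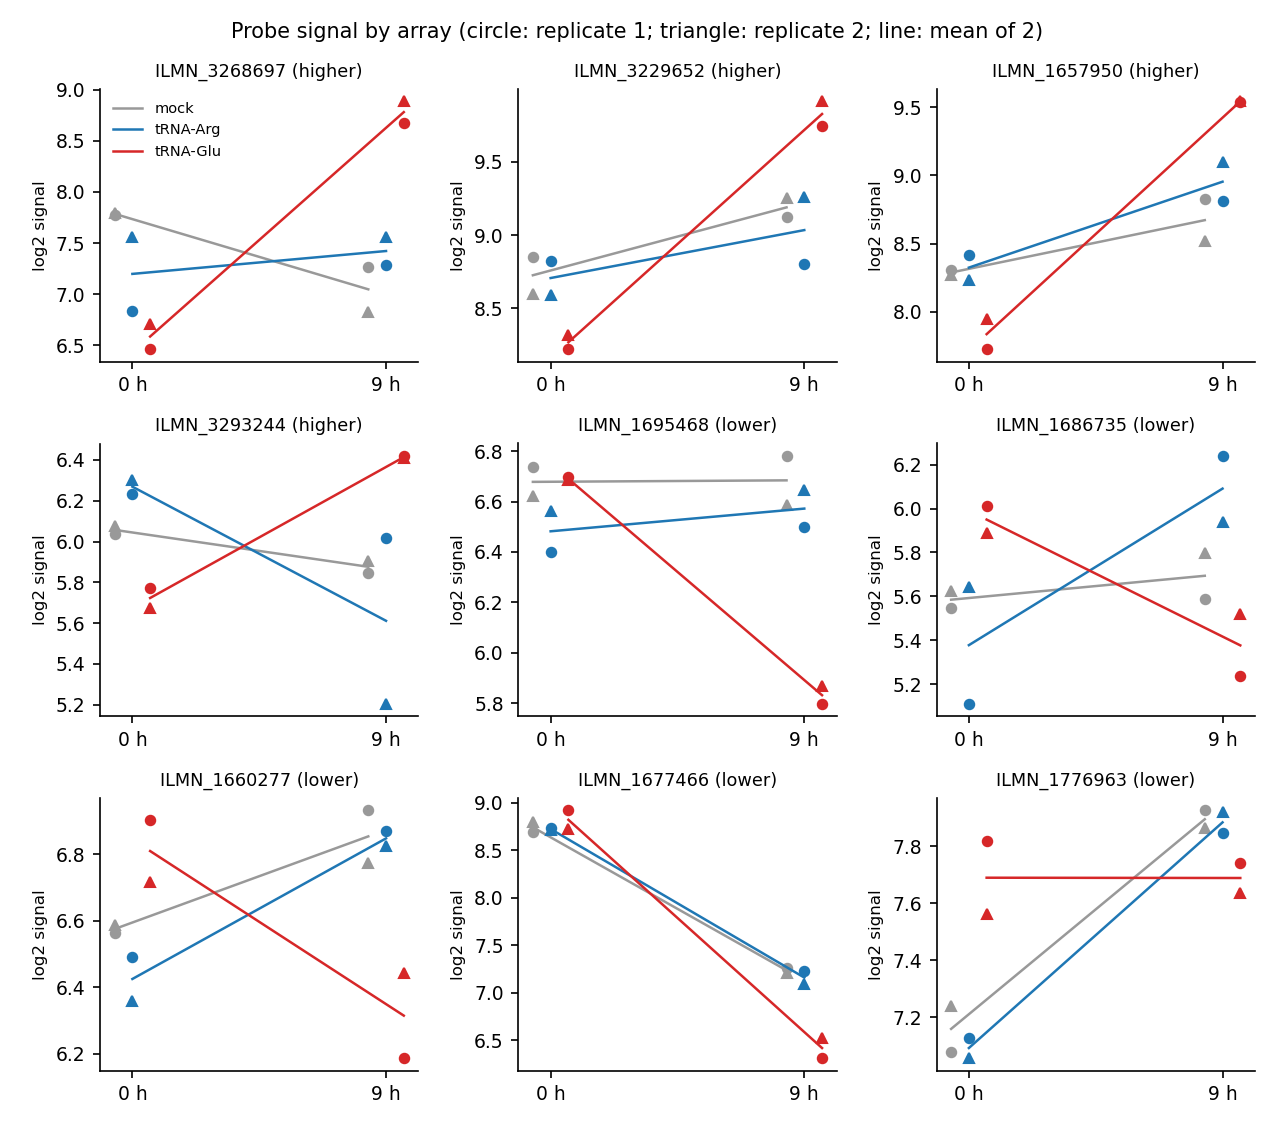
Log2 signal at 0 and 9 h of the 9 probes with signal in every tRNA group; circles are replicate 1, triangles replicate 2 and lines join the means of 2 arrays for mock, tRNA-Arg and tRNA-Glu, with a separate vertical scale in each panel. ILMN_3268697 rises from 6.46 and 6.71 to 8.68 and 8.89 with tRNA-Glu, and ILMN_1677466 falls in all 3 lines.

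Opposite responses were rare. The 11 probes called in both lines in opposite directions comprised 4 that rose with tRNA-Glu and fell with tRNA-Arg and 7 of the reverse. In 6 of them every group had signal, namely ILMN_3293244, ILMN_1686735 and ILMN_1660277, given above, and ILMN_2276431, ILMN_2147920 and ILMN_1692049. The last 3 fell by 0.44, 0.40 and 0.51 with tRNA-Glu and rose by 0.51, 0.38 and 0.49 with tRNA-Arg. None of the 11 differences was called (adjusted p 0.459 or 0.461 by limma).

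Differences were then set against the response in mock cells, whose arrays the comparison does not use. Probes were divided into 10 groups of equal size, or deciles, by the mock change from 0 to 9 h. In the decile that fell most in mock cells (median -0.82) the tRNA lines fell alike, by 0.85 each, and the median stability difference was 0.01. In the decile that rose most (median 0.61) the median response was 0.38 with tRNA-Glu and 0.51 with tRNA-Arg, the median difference was -0.10 and 36.9% of its 2546 probes were above 0. There the lines differed by a median of 0.105 at 0 h and by -0.00384 at 9 h. Without the tRNA-Glu array that stood apart, the highest decile had a median of -0.03 with 45.8% above 0, and the lowest decile had -0.05, so the order of these deciles turned. Deciles by signal level in mock cells at 0 h had medians from -0.02 to 0.02.

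**Figure D4:**
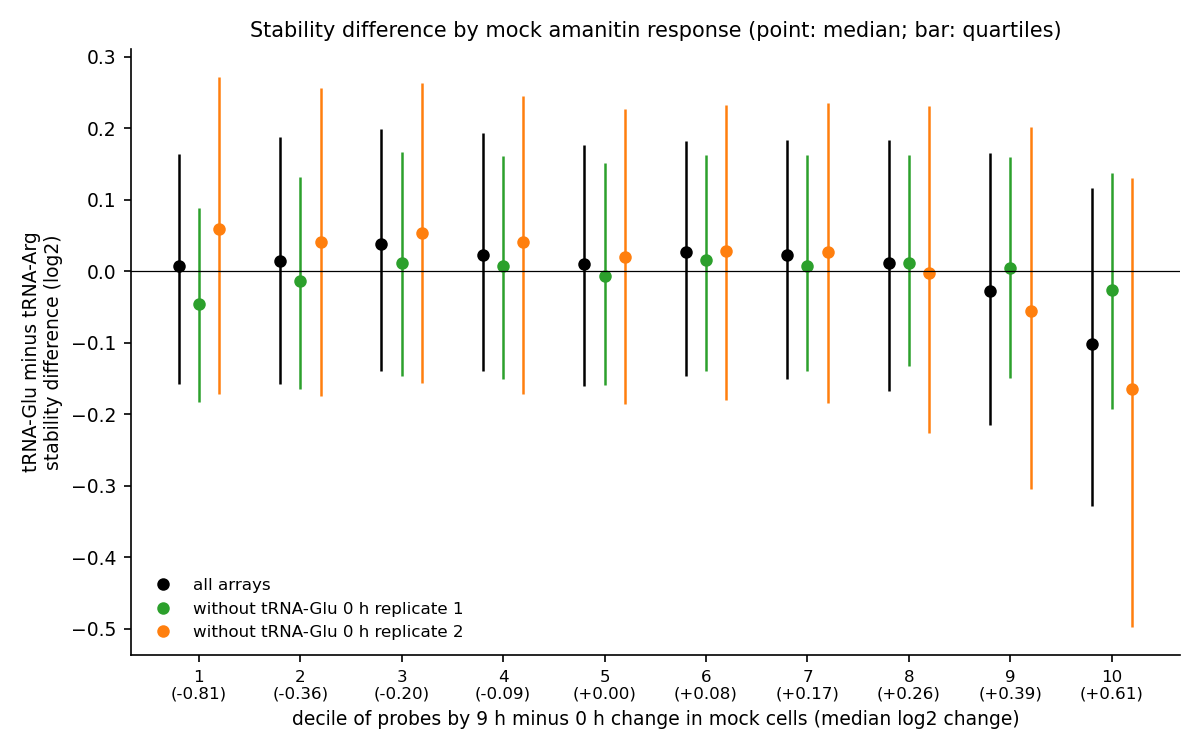
Stability difference on the log2 scale by decile of probes ranked by the mock change; points are medians and bars run between the quartiles, for all arrays and without either tRNA-Glu array at 0 h. The highest decile is at -0.10 with all arrays and at -0.03 without replicate 1.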

How the data were processed

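Intensity values of the deposited non-normalized table, for 12 arrays, were background corrected with limma's normexp (saddle-point method, offset 16), quantile normalised and put on the log2 scale. Per the labels, the authors used lumi, with no step stated; their processed intensity values served as an alternative. Any filter of theirs is not given in the sources used here. Of the same table, 12 deposited p-value columns for detection, headed by a position that names no sample, were not used. Probes above the array's median raw intensity on both arrays of at least 1 group were tested (25456 of 47231) in 1 limma fit of 6 group means (degrees of freedom: 6 residual, 7.06 prior). Benjamini-Hochberg adjustment was made within each contrast, at 0.05. The procedure was tested on simulated data.

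Scores of the authors' deposited table, 1 per gene and line, are the authors' own values and have no error. The text names the 12 highest and 12 lowest scaled differences among the 19450 symbols that are no placeholder, members among the 4 largest in each list, EXOSC2 and GRIPAP1, and other genes only as chosen after their values were seen; subunit groups and the proteasome exceptions were also chosen then. Some items are not reported here. On the arrays, the 8 smallest p-values each way with separated changes are named. Members and lists were chosen with earlier results of these data known. The planned comparison with glutamate and arginine content was not run, since no protein or coding sequences were used here, and no sequence is printed. Replicate numbers did not pair the samples (correlation of deviations -0.0877 to 0.0713 over 6 pairs of tRNA groups). Fits used limma 3.58.1 in R 4.3.3; scores and figures used pandas 2.3.3, numpy 2.4.6 and matplotlib 3.10.9 in Python 3.11.15.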

Additional observations from a re-analysis of the deposited data

How the results depend on the processing

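The stability difference had 0 calls by limma with all arrays, and also with median scaling, cyclic loess, no filter, signal on all 12 arrays, the 8 tRNA arrays alone, array weights and the authors' processed values. The fit with a replicate block gave 0 calls too (2490 at unadjusted p under 0.05), and the numbers do not pair the samples. No background correction, an offset of 50 and a variance trend each gave 1 call for stability, 1 at 0 h and 2 at 9 h; in these settings the stability call was ILMN_3268697. Leaving out each array in turn gave 0 to 637 calls for stability, 0 to 1323 at 0 h, 0 to 13 at 9 h, 5902 to 8294 for the tRNA-Glu response and 4222 to 8158 for the tRNA-Arg response. The counts of 637 and 1323 came without the second tRNA-Glu array at 0 h and the 13 without the first at 9 h. No named probe turned its direction in any of these fits. The median of the highest mock decile minus that of the lowest was -0.11 with all arrays, 0.0198 without the first tRNA-Glu array at 0 h and -0.22 without the second, the last chosen after seeing the data. Without placeholder names, 2183 genes had a scaled difference above 1 in the authors' deposited table. In the authors' deposited table the interferon median of 0.202 became -0.0656 without scaling and -0.15 as a residual, and the endoplasmic reticulum median of 0.272 became -0.00612 as a residual; no other list median and none of the 26 named genes turned. On the same spread, however, 29 of 60 list medians and 10 of 78 values of named genes moved; the ribosomal median of 0.277 became 0.654 without scaling and that of the polymerase III list went from 0.440 to 1.49, in the authors' deposited table. Array number limits precision, with 2 arrays a group.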

Other observations

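Transcript classes differed in how often they lay past the mark of 1, as RefSeq's class of each matched symbol shows (19252 of 19450 symbols that are no placeholder matched). Of 18759 protein-coding genes, 11.7% were above 1 and 11.7% below -1 in the authors' deposited table. Of 563 microRNA genes, 4.97% were above 1 and 4.09% below -1 in the authors' deposited table, and of 576 long noncoding RNA genes 5.56% and 4.51%. The 282 small nucleolar RNA genes, to which SNORA12 belongs, had 6.38% on each side in the authors' deposited table. Olfactory receptor genes, which breast cells are not known to use, had scores of nearly equal SD in the lines, 0.0514 and 0.0527 over 377 genes. Over all genes the tRNA-Glu SD was 1.59 times the tRNA-Arg SD in the authors' deposited table. Of the olfactory genes, 4.51% were above 1 and 3.18% below -1 in the authors' deposited table, close to the microRNA shares. The scores carry no signal level, and whether low signal set the shares of these classes was not tested.

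Members of gene families with near-identical copies, chosen after their values were seen, did not always lie together, and a probe for one copy can also bind the RNA of another. Beside HNRPA1P4 at -5.88, HNRNPA1 had -2.96 and HNRPA1L-2 had -4.36 in the authors' deposited table, while HNRNPA1L2 had -0.0966, which turned its sign without scaling. RPS26 had 1.31, RPS26L 1.16 and RPS26P11 0.902 beside 5.17 for RPS26P10 in the authors' deposited table. The tubulin genes TUBB2A and TUBB2B lay on the same side, at 4.52 and 1.97, while TUBB2C, another beta-tubulin gene and not a copy of these, had -2.96 in the authors' deposited table. PPIA, a peptidyl-prolyl isomerase, had -4.95, from scores of -0.626 and 0.0253 in the authors' deposited table. RPL21, a large-subunit ribosomal protein gene, had high scores in both lines, 1.14 and 0.716, and a scaled difference of -0.0248 that was positive without scaling in the authors' deposited table.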
